A study of Homo sapiens with 6 samples.

Results

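The genes described here encode the zinc-dependent proteases that cut extracellular matrix and cell surface proteins, and their tissue inhibitors. They were taken by name: every protein-coding gene called MMP, ADAM, ADAMTS, ADAMTSL or TIMP followed by a number, with an optional letter. This gave 71 of the 30727 genes listed, namely 23 MMP, 20 ADAM, 19 ADAMTS, 5 ADAMTSL and 4 TIMP genes. Their expression was measured by sequencing of polyadenylated RNA in PANC-1, an established line of human pancreatic ductal carcinoma cells. In 3 libraries the cells had received siRNA against SUV420H2 (now named KMT5C, a methyltransferase for lysine 20 of histone H4), and 3 libraries were labelled as control. All libraries came from this line. The sources used here do not give the kind of control, the siRNA sequence, its dose or the hours of treatment. Nor do the labels call the libraries separate cultures, so the p-values reflect the spread among these libraries alone, which may be technical. The question is which protease and inhibitor genes change when SUV420H2 is knocked down, and an effect of the siRNA on other targets cannot be told apart from it.

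Matrix metalloproteases (MMPs) are made as inactive zymogens that are secreted or anchored in the membrane, and together they can cut most components of the matrix. ADAMs are membrane proteases that release the outer parts of receptors, ligands and adhesion molecules, a process called shedding. ADAMTS proteases are secreted and act on proteoglycans, procollagens and other matrix proteins, whereas ADAMTSL proteins resemble them but have no protease domain. TIMPs bind the active site of these enzymes and block it. TIMP2 has a further role, since on the cell surface it links pro-MMP2 to MMP14, which starts the activation of MMP2. In pancreatic carcinoma these proteins have been studied for their part in invasion and in the dense stroma of the tumour.

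The libraries held 20863594 to 25931995 counted reads in the controls and 27007534 to 38022772 in the knockdown. The targeted gene KMT5C was lower in the knockdown (log2 fold change −0.72, SE 0.163, edgeR adjusted p = 0.00227), with no overlap of the groups and a change of −0.50 without control replicate 3. An exact two-sided permutation test gave p = 0.1, the smallest that 3 against 3 allows. Control replicate 3 stood apart, with a chi-square per degree of freedom of 11.3 and 13.6 against the other controls and 1.55 to 2.26 for the other replicate pairs, and its effect is given where it matters. Of 7 genes fixed as marks of a carcinoma of duct origin, all were expressed, at a summed level of 2850 to 3400 CPM (reads scaled to library size, with TMM factors) in the controls and 6030 to 6240 in the knockdown. The extraction protocol in the labels is written for brain cells and other types, so markers of brain were included. The acinar and islet genes were at 0.221 CPM or less in sum, with GCG and AMY2A at 0 reads, and the leukocyte genes at 0.92 or less. Fibroblast and endothelial genes summed to 1.98 to 2.23 CPM in the controls and 7.6 to 8.17 in the knockdown, nearly all of it PDGFRB, and neuron and astrocyte genes to 0.799 to 1.49 and 2.32 to 2.7, with AQP4 at 0. The part of these differences in the results below was not tested.

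The 71 genes took 0.141% to 0.143% of all reads in the controls and 0.146% to 0.148% in the knockdown. Their summed level moved little, while TIMP2 took a larger part of it and MMP2 and ADAM9 smaller parts. To compare genes of different length, the deposited nRPKM was used, a read count scaled to gene length and library size. The sum over all 71 genes was 369 ± 3.5 nRPKM in the controls and 381 ± 1.77 in the knockdown (SD, n = 3 each). The MMP genes together went from 88.8 ± 5.07 to 59.95 ± 1.10 nRPKM and the ADAM genes from 152 ± 7.74 to 119 ± 1.76. Neither sum fell by more than a single gene in it. MMP2 went from 58.3 ± 2.68 to 27.0 ± 0.594 and ADAM9 from 59.6 ± 4.30 to 23.3 ± 0.445. The sum of the 4 TIMP genes went the other way, from 97.1 ± 4.71 to 174 ± 2.32, which was the rise of TIMP2. For the MMP, ADAM and TIMP sums the libraries of the groups did not overlap. The membrane-type MMP genes alone summed to 27.1 ± 2.46 nRPKM in the controls and 29.6 ± 0.555 in the knockdown, with groups that overlapped. In bulk RNA of this kind, fewer cells that express a gene and less RNA per cell cannot be told apart.

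**Figure D1:**
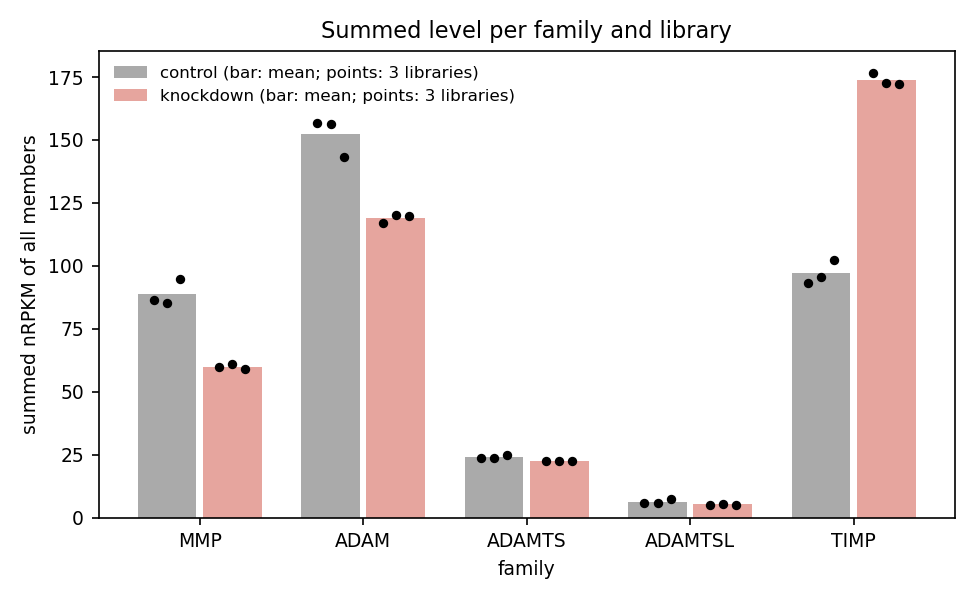
Summed nRPKM of all members of each family (vertical axis, linear, from 0) in control and knockdown; bars are means and points are the 3 libraries of a group. The knockdown points lie below the controls for the MMP and ADAM sums and above them for the TIMP sum. These differences came mostly from MMP2, ADAM9 and TIMP2.

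A few genes made up most of this level. In the controls TIMP1 (61.1 ± 5.30 nRPKM), ADAM9 (59.6 ± 4.30) and MMP2 (58.3 ± 2.68) were highest and did not differ beyond their spread. ADAM10 (46.1 ± 4.14), TIMP2 (35.95 ± 0.643), ADAM17 (25.5 ± 1.40) and ADAMTS15 (22.6 ± 0.575) followed. In the knockdown TIMP2 led with 115 ± 1.41 nRPKM. ADAM10 (58.7 ± 1.26) and TIMP1 (58.5 ± 0.95) came next and could not be told apart, and MMP2 (27.0 ± 0.594) and ADAM9 (23.3 ± 0.445) stood well below them. The rank of ADAM17 and of ADAMTS15, places 6 and 7, was the same in both groups.

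**Figure D2:**
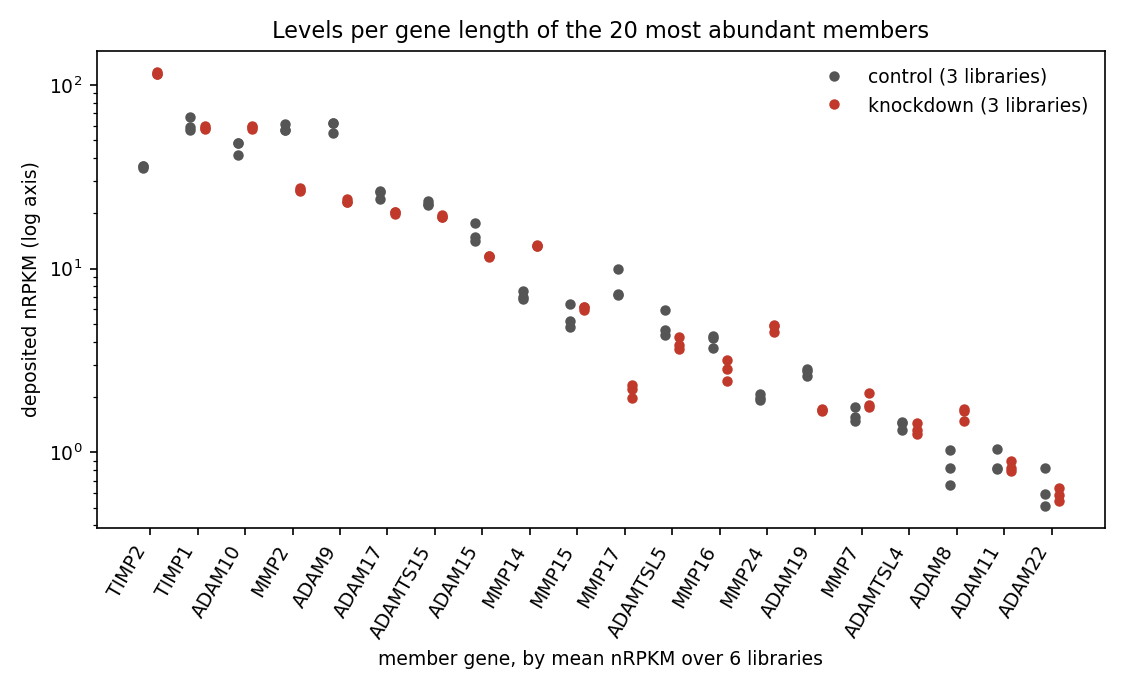
Deposited nRPKM (vertical axis, log scale) of the 20 members of highest mean level, 1 point per library, controls in gray and knockdown in red. TIMP2 moves from 35.95 to 115 nRPKM, while MMP2, ADAM9 and MMP17 drop and TIMP1 stays within the spread of its controls.

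Of the 71 genes, 38 had enough reads to be tested, and 28 of these differed between the groups, 16 higher and 12 lower in the knockdown. This is to be read against the background: of 15190 genes tested, 67.3% differed, 33.1% higher and 34.2% lower. A count of 28 in 38 (73.7%) is thus near the share of all genes. Groups did not overlap for 18 of the 38 members above and 12 of the 38 below, against 35% and 36.3% of all genes. Called changes of at least 2-fold were seen for 9 of the 38 members higher and 6 of the 38 lower, against 8.01% and 6.01% of all genes. The median log2 fold change was 0.21 over the members and −0.01 over all genes. Of the 38, 7 reached the read minimum in every knockdown library but not in every control. Another 3 reached it in every control but not in every knockdown library. The filter favours a difference in such genes, though ADAM33 among the 7 did not pass (edgeR adjusted p = 0.0783). Among the 28 that reached the minimum in every library of both groups, 10 were higher and 9 lower, with a median of 0.02. Of these 28, 5 were called and at least 2-fold higher and 3 at least 2-fold lower.

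**Figure D3:**
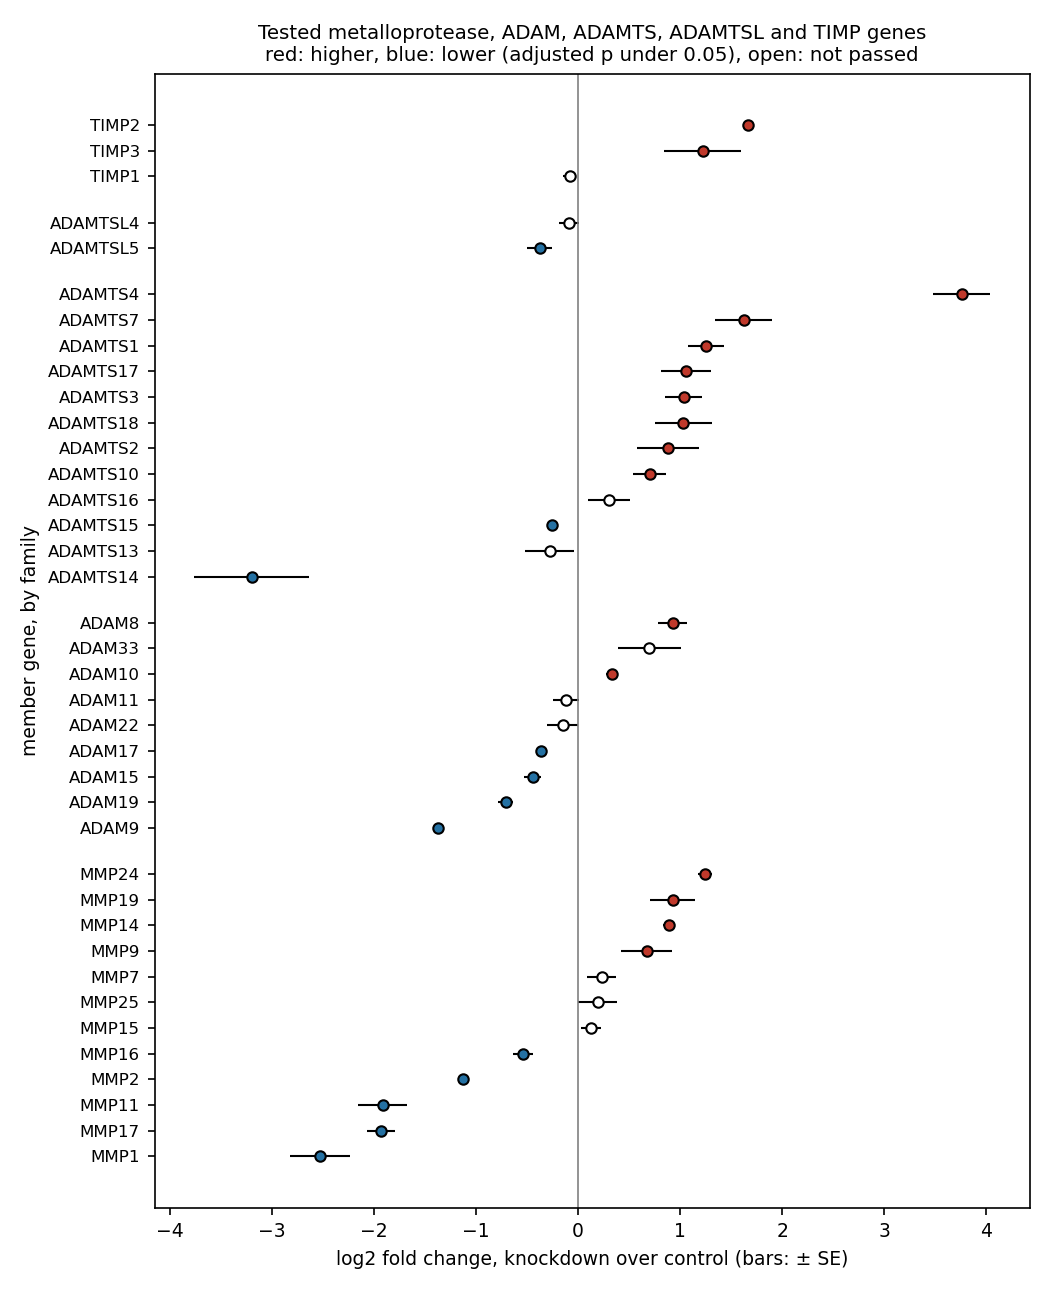
Log2 fold change, knockdown over control, with its SE (horizontal axis) for the 38 tested members by family (vertical axis); red is higher, blue is lower and open did not pass. The ADAMTS genes that rose lie from 0.70 for ADAMTS10 to 3.76 for ADAMTS4, while the MMP and ADAM genes lie on both sides.

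Among the inhibitors, TIMP2 had the smallest p of all members. It had 136, 137 and 134 CPM in the controls and 437, 428 and 426 CPM in the knockdown libraries. The groups were far apart and each was tight. The log2 fold change was 1.67 (SE 0.0387, 3.17-fold, edgeR adjusted p = 1.22e-10), from 9671 reads in the controls and 41145 in the knockdown. TIMP1, a secreted inhibitor with growth factor-like effects, had 92.7, 96.0 and 110.5 CPM in the controls and 96.1, 93.3 and 93.5 in the knockdown. These groups overlapped (log2 fold change −0.08, SE 0.0626, edgeR adjusted p = 0.273). TIMP3, which is bound to the matrix and also inhibits ADAM17, was rare, with 6, 2 and 4 reads in the controls and 15, 11 and 12 in the knockdown, where alone it reached the read minimum. Its rise of 1.22 (SE 0.377, edgeR adjusted p = 0.014) was lost in DESeq2 (adjusted p = 0.107) and without control replicate 2 (0.0575). TIMP4 had 2 reads in the controls and 4 in the knockdown and was not tested. TIMP1, TIMP3 and TIMP4 each lie within the span of a synapsin gene (SYN1, SYN3 and SYN2), and the span of TIMP2 holds CEP295NL. Whether reads were counted by strand is unstated. SYN1 had 0.919 CPM in the controls and 0.554 in the knockdown, and CEP295NL 0.153 and 0.185, far under TIMP1 and TIMP2.

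The gelatinases MMP2 and MMP9 cut denatured collagen and the collagen of basement membranes, and they went in opposite directions. MMP2 had 225, 223 and 246 CPM in the controls and 106, 108 and 104 in the knockdown. No knockdown library came near a control (log2 fold change −1.13, SE 0.0487, 2.19-fold lower, edgeR adjusted p = 7.88e-09). MMP9 had only 15, 11 and 9 reads in the controls and 32, 21 and 22 in the knockdown. In CPM this was 0.494 ± 0.127 and 0.780 ± 0.0521 (SD, n = 3 each; log2 fold change 0.67, SE 0.253, edgeR adjusted p = 0.0354). The call was lost in DESeq2 (adjusted p = 0.191), without a low-count filter (0.0574), with equal depth in all libraries (0.0604) and on leaving out any library but control replicate 1.

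The TIMP2, MMP14 and MMP2 genes, whose products meet in the activation of MMP2, changed their proportions. MMP14, the first membrane-type MMP and a collagenase of the cell surface, had 25.7, 25.2 and 28.1 CPM in the controls and 48.8, 49.6 and 48.6 in the knockdown. All knockdown libraries were above all controls (log2 fold change 0.89, SE 0.0584, edgeR adjusted p = 1.76e-07). Per length, TIMP2 was 5.08 ± 0.341 times the level of MMP14 in the controls and 8.64 ± 0.151 times in the knockdown. TIMP2 was 0.618 ± 0.0385 times the level of MMP2 in the controls and 4.28 ± 0.103 times in the knockdown. MMP14 was 0.122, 0.121 and 0.122 times the level of MMP2 in the controls and 0.494, 0.489 and 0.502 times in the knockdown. These are ratios of RNA levels and say nothing of the proteins.

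All 6 membrane-type MMP genes were tested, and they split: 2 rose (33.3%), 2 fell (33.3%) and 2 did not pass. This is near the 33.1% and 34.2% of all genes. MMP24 (MT5-MMP, best known from neurons) had 8.83, 9.25 and 8.74 CPM in the controls and 21.5, 20.0 and 21.9 in the knockdown. The groups were well apart (log2 fold change 1.24, SE 0.0730, edgeR adjusted p = 7.58e-08). Its end overlaps MMP24OS, which was more abundant and also rose (35.1 to 62.35 CPM, log2 fold change 0.83, edgeR adjusted p = 3.62e-06), so that reads of the pair may not be separate. MMP17 (MT4-MMP, held by a lipid anchor) had 17.8, 18.0 and 25.0 CPM in the controls and 5.43, 5.74 and 4.83 in the knockdown. It fell 3.82-fold (log2 fold change −1.93, SE 0.140, edgeR adjusted p = 3.91e-07). Control replicate 3 was the highest library. MMP16 (MT3-MMP) had 27.9, 27.2 and 24.3 CPM in the controls and 18.3, 20.6 and 15.7 in the knockdown (log2 fold change −0.54, SE 0.0956, edgeR adjusted p = 0.000429). MMP15 (0.13, edgeR adjusted p = 0.256) and MMP25 (0.19, 0.414) did not pass. Without control replicate 3, MMP15 passed at 0.27 (edgeR adjusted p = 0.000189).

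The promoters of MMP14 and MMP24 are shown as those of the 2 membrane-type genes that rose. Beside them is that of MMP7, an epithelial matrilysin whose call did not pass. Each line is the 250 bases before the gene's start in RefSeq (GRCh38.p14), read 5′ to 3′ on the strand of the gene. Capitals mark matches, on either strand, to the GC box bound by SP1 (GGGCGG or CCGCCC), to the TATA box (searched as TATAAA on the strand of the gene only) and to the AP-1 site (TGAGTCA or TGACTCA). These motifs share no letters where they occur here. The windows are MMP14 at chr14:22836335-22836584 (plus strand), MMP24 at chr20:35226440-35226689 (plus strand) and MMP7 at chr11:102530748-102530997 (minus strand).
MMP14: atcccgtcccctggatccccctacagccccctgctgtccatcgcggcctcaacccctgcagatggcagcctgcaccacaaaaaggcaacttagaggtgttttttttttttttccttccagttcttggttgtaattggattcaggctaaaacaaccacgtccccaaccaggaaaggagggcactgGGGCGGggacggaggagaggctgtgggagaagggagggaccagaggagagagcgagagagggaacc
MMP24: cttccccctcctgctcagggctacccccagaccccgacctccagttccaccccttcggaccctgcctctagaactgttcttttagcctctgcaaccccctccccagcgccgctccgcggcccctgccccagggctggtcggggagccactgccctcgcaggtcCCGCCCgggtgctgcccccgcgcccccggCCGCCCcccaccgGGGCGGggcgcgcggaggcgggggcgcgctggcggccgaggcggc
MMP7: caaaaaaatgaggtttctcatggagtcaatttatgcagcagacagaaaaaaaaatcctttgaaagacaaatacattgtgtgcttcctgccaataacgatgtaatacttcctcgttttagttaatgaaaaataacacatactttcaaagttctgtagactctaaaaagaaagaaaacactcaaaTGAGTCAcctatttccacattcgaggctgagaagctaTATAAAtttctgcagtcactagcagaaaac
The MMP14 window held 1 GC box, 66 bases before the start, and that of MMP24 held 3, from 87 to 45 bases before it. The MMP7 window held an AP-1 site 67 bases before the start and a TATA box 30 bases before it. A promoter was at hand for 44 members. GC boxes were found in 21 of 23 tested members (91.3%), against 66.9% of 11534 promoters of tested genes and 42.3% of all 27305 promoters. The windows of tested members were also richer in G and C, with a median of 74.8% against 65.2% in promoters of tested genes. GC boxes were in all 11 windows of members that rose and in 5 of 6 of members that fell. Among the windows of members that did not pass, only that of MMP7 had none. SP1 itself fell (log2 fold change −1.02, SE 0.0450, edgeR adjusted p = 9.31e-09). Whether this bears on any member was not tested. AP-1 sites were found in 4.16% of all promoters and, among members, only in that of MMP7. A match is a string of letters and shows no binding.

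Most of the secreted MMP genes of the cluster on chromosome 11 were near silent. Its 9 genes run from MMP7 (chromosome 11, 102520508 to 102530747) to MMP13 (102942995 to 102955732) in the order MMP7, MMP20, MMP27, MMP8, MMP10, MMP1, MMP3, MMP12 and MMP13. Only MMP7 and MMP1 passed the read filter. MMP1, the interstitial collagenase, had 34, 24 and 34 reads in the controls and 8, 3 and 10 in the knockdown. The groups did not overlap, and the log2 fold change was −2.53 (SE 0.294, 5.78-fold lower, edgeR adjusted p = 1.75e-05). WTAPP1, a pseudogene transcript that overlaps MMP1, was also lower (0.307 and 0.131 CPM) and was not tested. MMP7 had 1.80, 2.02 and 1.72 CPM in the controls and 2.06, 2.03 and 2.40 in the knockdown. All knockdown values were above the controls, by less than the test could tell from no change (log2 fold change 0.23, SE 0.145, edgeR adjusted p = 0.191). Of the 5 promoters of this cluster at hand, which do not include MMP1, 4 held a match to the TATA box and none a GC box. The match lay 30 bases before the start in MMP7 and 31 in MMP10, but 72 in MMP20 and 110 in MMP8. Their median GC content was 34.4%, against 68.8% over all members at hand. TATA boxes were found in 7.17% of all promoters.

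Outside the cluster, 2 more secreted MMP genes were tested. MMP11, or stromelysin-3, which furin activates inside the cell and which was picked for values by library after they were seen, had 39, 29 and 43 reads in the controls and 14, 16 and 9 in the knockdown (log2 fold change −1.92, SE 0.242, edgeR adjusted p = 3.41e-05). MMP19 rose by 0.93 (SE 0.219, edgeR adjusted p = 0.00312), from 55 reads in the controls to 140. Over the 23 MMP genes, 12 were tested, of which 4 rose (33.3%), 5 fell (41.7%) and 3 did not pass, near the 33.1% and 34.2% of all genes. Of these, MMP1 reached the read minimum only in the controls. MMP9 reached it in every knockdown library but not in every control, and MMP11 in every control but not in every knockdown library.

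Among the ADAM genes, the sheddases with the broadest known range of substrates moved in opposite directions by small amounts, while ADAM9 fell strongly. ADAM10, which cuts NOTCH receptors and E-cadherin, had 251, 250 and 217 CPM in the controls and 295, 304 and 306 in the knockdown (log2 fold change 0.33, SE 0.0569, edgeR adjusted p = 0.000328). ADAM17, which releases TNF and ligands of the EGF receptor, had 96.1, 97.2 and 89.0 CPM in the controls and 72.2, 73.6 and 73.8 in the knockdown (−0.36, SE 0.0479, edgeR adjusted p = 4.81e-05). For both genes the groups did not overlap, but neither differed by more than 1.5-fold in edgeR's glmTreat (adjusted p = 1.0). By that rule 8 of the 38 tested members were higher and 6 of the 38 lower, against 10.6% and 9.16% of all genes. Of those higher, ADAMTS4 and ADAMTS7 reached the read minimum in every knockdown library but not in every control. Of those lower, MMP1, MMP11 and ADAMTS14 reached it in every control but not in every knockdown library. The filter favours a difference in such genes. ADAM10 had 1.8 ± 0.0678 times the level per length of ADAM17 in the controls and 2.92 ± 0.0248 times in the knockdown. ADAM17 overlaps IAH1, which also fell (−0.63, edgeR adjusted p = 2.23e-06).

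ADAM9, a sheddase of growth factor and adhesion proteins, had 261, 262 and 233 CPM in the controls and 96.2, 99.6 and 96.5 in the knockdown. It fell 2.59-fold (log2 fold change −1.37, SE 0.0523, edgeR adjusted p = 3.68e-09). MMP17, at place 9 by level in the controls, fell more (−1.93), but among the 8 members above it the fall of ADAM9 was the largest. ADAM10 thus went from 0.773 ± 0.0147 to 2.52 ± 0.0525 times the level per length of ADAM9. ADAM15, which carries an integrin-binding motif, had 52.5, 49.8 and 63.5 CPM in the controls and 40.8, 40.3 and 40.7 in the knockdown (−0.45, SE 0.0809, edgeR adjusted p = 0.000513). ADAM19, or meltrin beta, had 18.1, 19.2 and 20.0 CPM in the controls and 11.5, 11.8 and 11.7 in the knockdown (−0.71, SE 0.0697, edgeR adjusted p = 4.46e-06). ADAM8, known from leukocytes and linked to invasion in pancreatic carcinoma, was low and rose. It had 3.04, 2.46 and 3.88 CPM in the controls and 6.22, 6.33 and 5.46 in the knockdown (0.93, SE 0.145, edgeR adjusted p = 0.000173). ADAM11 (−0.12), ADAM22 (−0.15), both without protease activity, and ADAM33 (0.70) did not pass. Without control replicate 3, ADAM22 passed at −0.31 (edgeR adjusted p = 0.0226). In all, 9 of 20 ADAM genes were tested, 2 higher and 4 lower, with a median of −0.15. The share called, 66.7%, was near the 67.3% of all genes.

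The promoters of ADAM10 and ADAM17 are shown because these sheddases share substrates but moved apart, in the same form as above, at chr15:58749708-58749957 (minus strand) and chr2:9555831-9556080 (minus strand).
ADAM10: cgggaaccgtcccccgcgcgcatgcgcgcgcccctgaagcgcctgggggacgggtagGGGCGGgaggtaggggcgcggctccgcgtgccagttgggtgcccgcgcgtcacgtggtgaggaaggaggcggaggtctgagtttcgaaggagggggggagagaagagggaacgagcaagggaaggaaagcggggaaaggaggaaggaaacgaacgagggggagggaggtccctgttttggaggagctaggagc
ADAM17: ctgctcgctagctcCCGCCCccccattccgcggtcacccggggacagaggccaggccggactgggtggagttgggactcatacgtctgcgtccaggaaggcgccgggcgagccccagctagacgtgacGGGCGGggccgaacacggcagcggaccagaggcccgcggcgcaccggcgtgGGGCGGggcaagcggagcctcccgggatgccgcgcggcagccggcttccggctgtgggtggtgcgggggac
Both windows were rich in G and C (68.4% and 75.6%) and held no TATA box or AP-1 site of the letters searched. ADAM10 held 1 GC box, 193 bases before the start, and ADAM17 held 3, at 236, 122 and 71 bases.

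The ADAMTS genes were mostly low, and most of those tested rose. Of 19 genes 12 were tested, and 8 rose, 2 fell and 2 did not pass, with a median of 0.96. The background is 33.1% of all genes higher. Of the 8, 4 (ADAMTS2, ADAMTS4, ADAMTS7 and ADAMTS18) reached the read minimum in every knockdown library but not in every control. Among the proteases of aggrecan and versican, ADAMTS4 had 2, 8 and 6 reads in the controls and 124, 77 and 96 in the knockdown. This was the largest rise of any member (log2 fold change 3.76, SE 0.277, edgeR adjusted p = 4.41e-07). ADAMTS4 was picked for values by library after they were seen. ADAMTS1 had 1.80, 1.30 and 1.10 CPM in the controls and 3.58, 3.02 and 3.39 in the knockdown (1.25, SE 0.174, edgeR adjusted p = 6.84e-05). ADAMTS15, the only abundant gene of the family, fell slightly, from 143 ± 4.82 to 120 ± 1.39 CPM (SD, n = 3 each; −0.25, SE 0.0426, edgeR adjusted p = 0.0003). Since it held most of the reads of the family, the summed ADAMTS level went from 24.3 ± 0.666 to 22.6 ± 0.130 nRPKM although most tested genes rose.

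All 3 procollagen N-proteinases, which trim fibrillar procollagens, were tested. ADAMTS2 reached the read minimum only in the knockdown and ADAMTS14 only in the controls, and the filter favours a difference in such genes. Without the filter, ADAMTS2 (edgeR adjusted p = 0.0344) and ADAMTS14 (1.88e-07) were still called. ADAMTS3 rose by 1.04 (SE 0.181, edgeR adjusted p = 0.000388), and ADAMTS2 by 0.88 (SE 0.304, edgeR adjusted p = 0.0242) from 23 to 57 reads. The call of ADAMTS2 was lost in DESeq2 (adjusted p = 0.138) and without control replicate 1 (0.0658), control replicate 2 (0.063) or knockdown replicate 3 (0.109). ADAMTS14, also picked after its values were seen, had 13, 9 and 15 reads in the controls and 0, 3 and 2 in the knockdown (−3.20, SE 0.562, edgeR adjusted p = 0.000406). Among the rest, ADAMTS7, a protease of the matrix protein COMP, rose by 1.62 (SE 0.284, edgeR adjusted p = 0.000399). ADAMTS17 (1.06), ADAMTS18 (1.03) and ADAMTS10 (0.70) rose as well, and ADAMTS16 (0.31) and ADAMTS13, the protease of von Willebrand factor (−0.28), did not pass. Of the ADAMTSL genes, ADAMTSL5 had 14.5, 13.5 and 18.9 CPM in the controls and 11.3, 13.2 and 11.9 in the knockdown (−0.38, SE 0.119, edgeR adjusted p = 0.0158). Leaving out control replicate 3 made this −0.23 (edgeR adjusted p = 0.0151). The call was lost without knockdown replicate 1 (0.0695). ADAMTSL4, which binds fibrillin, did not pass (−0.09, edgeR adjusted p = 0.44).

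**Figure D4:**
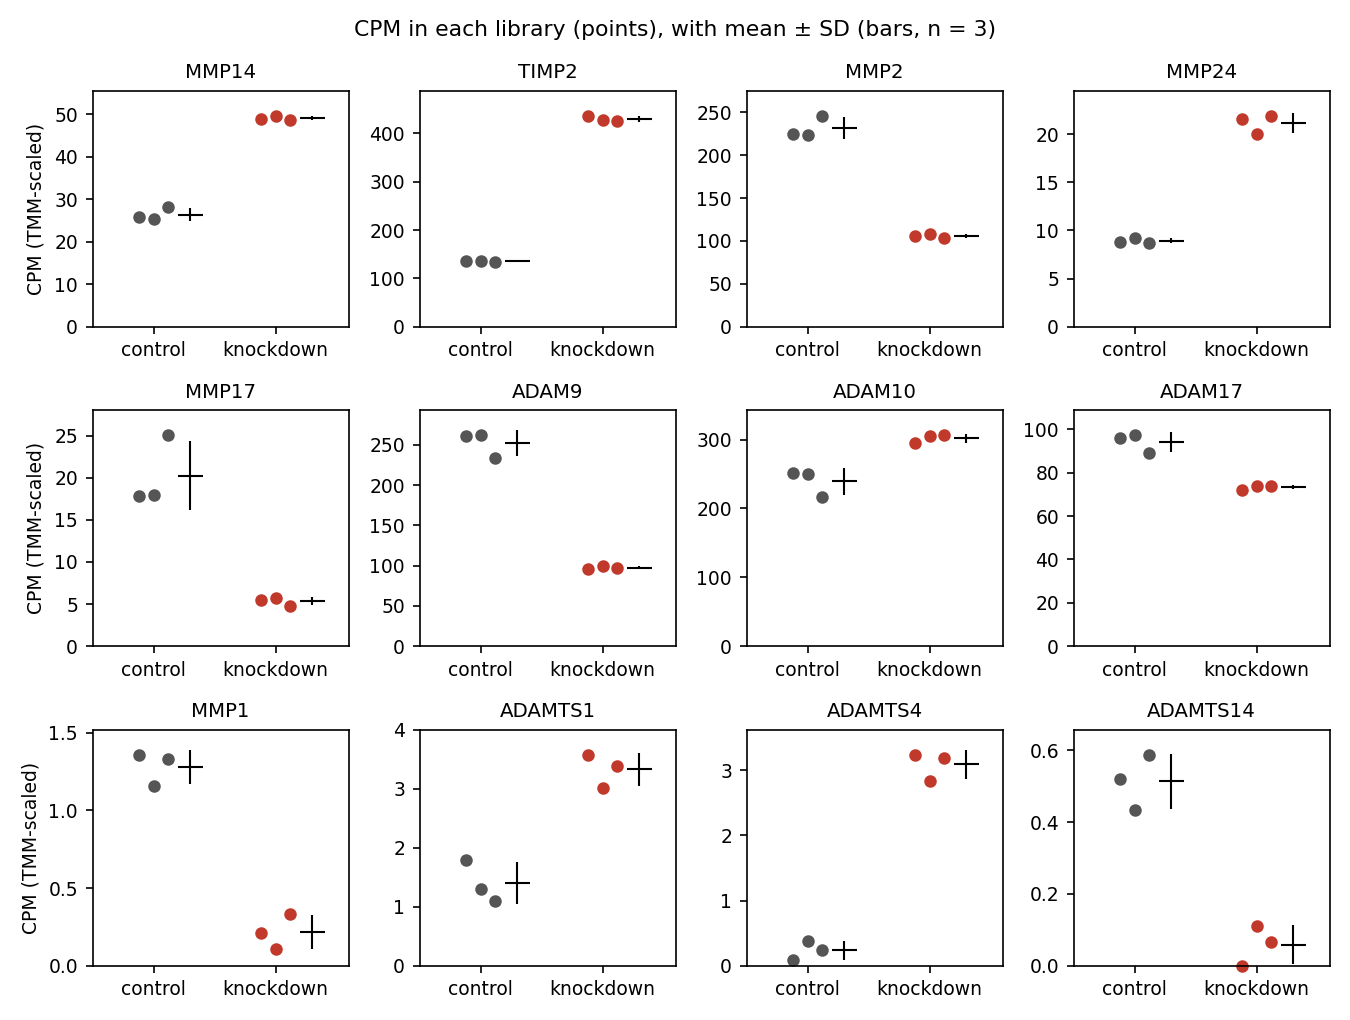
TMM-scaled CPM (vertical axes, linear, from 0, each gene with its own range) in each of the 3 control (gray) and 3 knockdown (red) libraries for 12 members, with mean ± SD beside the points. In every panel the points of the groups are apart, with MMP14, TIMP2, MMP24, ADAM10, ADAMTS1 and ADAMTS4 higher and the other panels lower in the knockdown.

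The other 33 members had 0 to 50 reads over all 6 libraries, 18 of them under 10. They were 11 MMP, 11 ADAM, 7 ADAMTS and 3 ADAMTSL genes and TIMP4. MMP26 had 0 reads, which allows a level of up to 0.018 CPM over the 6 libraries together (3 reads). Tested without a read filter, where 44.1% of 24531 genes differed, 4 of the 33 were higher and 1 lower. These were ADAM21 (1 read in the controls and 18 in the knockdown, edgeR adjusted p = 0.00392), MMP20, an enamel protease (4 and 24, 0.0105), MMP23B (8 and 29, 0.0339), ADAMTS6 (8 and 29, 0.0334) and, lower, ADAM23 (25 and 13, 0.0222). For ADAM21 the ratio corrected for depth was 13.7, with an exact 95% interval for counting error only of 2.16 to 569. For the stromelysins MMP3 (1 read) and MMP10 (8 reads) and the collagenases MMP8 (2 reads) and MMP13 (8 reads) a change was not detectable at this depth. The same holds for ADAMTS5, an aggrecanase with 0 reads in the controls and 5 in the knockdown.

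Genes that act with these proteases were taken as 5 lists. Of 19 genes of activation, docking and other inhibition, 15 were tested, and 10 rose (66.7%) and 5 fell (33.3%), against 33.1% and 34.2% of all genes (median 1.10, against −0.01). Among the rises, TFPI2 (8 reads in the controls, 107 in the knockdown) and HPN (8 and 81) reached the read minimum only in the knockdown. PLAU, the urokinase protease that activates plasminogen, went up from 428 ± 20.5 CPM (SD, n = 3 each) to 918 ± 4.40, a log2 fold change of 1.10 (SE 0.0440, edgeR adjusted p = 4.81e-09). ST14, or matriptase, rose by 3.19 (SE 0.130) and FURIN, which activates membrane-type MMPs and ADAMs, by 1.13 (SE 0.0570). RECK, a membrane inhibitor of MMP2, MMP9 and MMP14 (picked after its values were seen), rose by 1.11 (SE 0.0565, edgeR adjusted p = 2.72e-08). CD44, the hyaluronan receptor that docks MMP9 and MMP14, had 2278 ± 98.6 CPM in the controls and fell to 1162 ± 16.8 (−0.97, SE 0.0437, edgeR adjusted p = 1.06e-08).

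Of 11 genes that mature or transport ADAM10 and ADAM17, 6 rose, 3 fell and 2 did not pass (median 0.29), so that 81.8% were called against 67.3% of all genes. FRMD8, which stabilises the iRhom and ADAM17 complex, rose by 1.43 (SE 0.0660, edgeR adjusted p = 1.25e-08) and the iRhom gene RHBDF1 by 0.96 (SE 0.0905, edgeR adjusted p = 3.34e-06), while ADAM17 itself fell. The tetraspanins that escort ADAM10 split: TSPAN14 rose by 0.77 (SE 0.0440, edgeR adjusted p = 6.42e-08) and TSPAN15 fell by 0.54 (SE 0.0506, edgeR adjusted p = 2.86e-06). Of 29 substrates shed by these enzymes, 25 were tested, 14 higher (56.0%), 7 lower (28.0%) and 4 not passed (median 0.25), against 33.1% and 34.2% of all genes. Besides CDH1 (3.46), the chemokine CX3CL1 had 56.9 ± 2.80 CPM in the controls and rose to 304 ± 1.63 (2.42, SE 0.0472, edgeR adjusted p = 4.84e-11). IL6R, the interleukin-6 receptor, rose by 1.96 (SE 0.0401, edgeR adjusted p = 6.34e-11) and TNFRSF1B, a TNF receptor, by 2.74 (SE 0.0585, edgeR adjusted p = 8.54e-11).

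Of 23 matrix substrates and partners of the ADAMTS proteins, 16 were tested, and 14 rose (87.5%, against 33.1% of all genes), none fell and 2 did not pass (median 1.78). At an unadjusted p under 0.05 none was lower either, nor in DESeq2. VCAN had 0, 2 and 3 reads in the controls and 33, 26 and 34 in the knockdown. COMP had 6, 2 and 4 reads in the controls and 37, 18 and 21 in the knockdown. Both reached the read minimum only in the knockdown. COL3A1, also among the 14 that rose, had 10, 4 and 9 reads in the controls and 258, 183 and 201 in the knockdown. It reached the minimum in every knockdown library but not in every control. The share is thus in part set by the filter. The fibrillar collagens COL2A1 and COL1A1, which the N-proteinases trim, were among the 14 that rose. COL2A1 went from 45 reads in the controls to 20870 in the knockdown (8.42, SE 0.0915, edgeR adjusted p = 4.21e-13). COL1A1 rose by 2.01 (SE 0.0601, edgeR adjusted p = 6.74e-10), while COL1A2 had 4 and 7 reads and was not tested. BMP1, the C-proteinase that trims the other end of these collagens, rose as well (2.40, SE 0.0748, edgeR adjusted p = 9.2e-10). VEGFC, a lymphatic growth factor that ADAMTS3 activates, had 21.0 ± 0.929 CPM in the controls and rose to 61.6 ± 1.86 (1.55, SE 0.0576, edgeR adjusted p = 3.02e-09). Of 17 transcription factors reported to act on MMP promoters, 8 rose (47.1%), 7 fell (41.2%) and 2 did not pass (median 0.11), against 33.1% and 34.2% of all genes. ETS2 had 358 ± 7.24 CPM in the controls and fell to 122 ± 3.10 (−1.55, SE 0.0413, edgeR adjusted p = 3e-10) and NFKB1 by 0.90 (SE 0.0608), while ETV4, another ETS factor, rose by 2.17 (SE 0.0779, edgeR adjusted p = 2.39e-09). Over the 5 lists, each gene taken once, 83 of 98 were tested, 52 higher (62.7%) and 21 lower (25.3%), against 33.1% and 34.2% of all genes. The 52 include genes that reached the read minimum only in the knockdown, and the lists were chosen with earlier results of these data known.

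**Figure D5:**
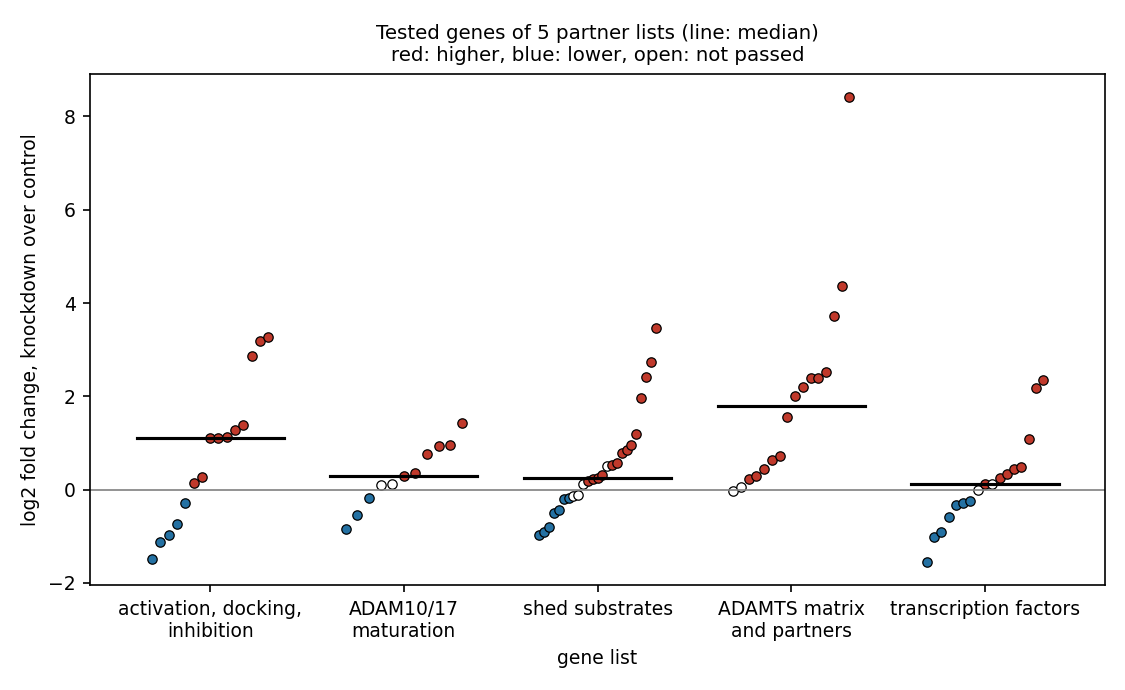
Log2 fold change, knockdown over control (vertical axis), of each tested gene in 5 lists of genes that act with these proteases (horizontal axis); red is higher, blue lower, open not passed, and the line is the median. The matrix list has its median at 1.78 and no gene called lower, and the transcription factor list at 0.11.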

How the data were processed

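Per the file headers, the authors deposited for each gene the count of uniquely aligned reads and the RPKM adjusted by a size factor (nRPKM). Per the submitters' processing notes, reads were aligned with GSNAP to GRCh38. The annotation, strand setting and size-factor method are unstated there and in the labels. The deposited counts were tested, and nRPKM was used only to compare levels between genes. Reads that fit several near-identical genes equally well are therefore absent from the counts.

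Symbols were found in RefSeq (GRCh38.p14) for 27814 of 30727 gene IDs. Counts were filtered with filterByExpr (at least 10 reads, 15 in total), then TMM factors were applied and genes were tested over all 6 libraries with the two-sided quasi-likelihood test of edgeR 4.0.16 (R 4.3.3), with Benjamini-Hochberg adjustment over 15190 genes and a threshold of 0.05. Alternatives used DESeq2 1.42.0 and limma 3.58.1. The script was tested on simulated data. Members, lists and naming rules were chosen with earlier results of these data known. Values by library are given for the most changed members of mean log2 CPM of at least 1, every TIMP, 10 preset members and the 3 of highest nRPKM, and the 4 genes of smallest p of each partner list are named. Depth was 20863594 to 38022772 reads per library.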

Additional observations from a re-analysis of the deposited data

How the results depend on the processing

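The tests were repeated under 15 alternatives. Of the 28 members called, 14 kept their call in every alternative in which they were tested. Tested against a 1.5-fold change, 8 members were higher and 6 lower, against 10.6% and 9.16% of all genes. These include ADAMTS4, ADAMTS7, MMP1, MMP11 and ADAMTS14, in which the filter favours a difference. Of the partner genes, 32 were higher and 8 lower by that rule. KMT5C (−0.72) no longer passed it (edgeR glmTreat adjusted p = 0.305, range over its alternatives 4.59e-10 to 0.305). When only genes averaging 1 or more in log2 CPM were kept, 6 members were higher, since fewer were tested. Leaving out each library gave 13 to 16 members higher and 11 to 13 lower, 47 to 56 and 20 to 22 partner genes, and −0.88 to −0.50 for KMT5C. Directions turned only among members that had not passed: ADAMTS13 (0.028 with equal depth, and −0.427 to 0.087 on leaving out a library), ADAM22 (−0.312 to 0.078) and ADAM11 (−0.179 to 0.016). For each of these the cause was not tested. No other scaling moved the median of all genes by over 0.1. No paired analysis was possible because the labels carry no replicate numbers. Depth limits the 33 members below the read filter.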
